A study of Mus musculus with 21 samples.

Results

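The genes of the contractile and actin cytoskeleton module were 43 genes named by symbol for their role and not by a cut-off on measured values, with earlier results of these data known: the actins, the calponin family, myosin subunits and their kinase, tropomyosins with caldesmon and leiomodin, crosslinking and adhesion proteins, regulators of filament turnover, and the signalling genes Rhoa, Rhob, Rock1, Rock2, Diaph1 and Diaph3 with the transcription factor Srf. All 43 symbols were found among the 55573 genes of the deposited table, and 42 passed the filter on low counts that left 15432 genes for testing. Cnn1, smooth muscle calponin, did not pass it, with 27 reads over the 21 libraries together. Of the 42, 36 had a mean of at least 30 CPM, read counts scaled to a common library size.

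RNA came from cultured E0771 mouse breast cancer cells that carry GFP, in 7 groups of 3 libraries. Cells grew in medium with iron-supplemented calf serum, and stranded mRNA libraries were made from polyA-selected RNA. The ZBTB18 line overexpresses ZBTB18, a transcriptional repressor, and was set against the same cells with an empty vector. The receptor line carries ZBTB18 overexpression plus a doxycycline-inducible TGFBR2, the type II TGF-β receptor, and was given doxycycline (1 mg/mL as the label writes it) with TGF-β1 (2 ng/mL) or with vehicle. M11 and M12 are untreated GFP lines derived from spontaneous lung metastases of E0771GFP, and the untreated parental E0771GFP line is what they and the empty-vector line were set against. Each group comes from a single line, the ZBTB18 construct being in both the ZBTB18 and the receptor line, so between lines a construct and the line that carries it cannot be told apart, and the labels do not say that replicates were separate cultures, so p-values measure only the spread between these libraries. In bulk RNA a lower level from fewer cells of a kind and a lower level from less RNA per cell cannot be told apart.

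The constructs were visible in the libraries. Zbtb18 averaged 113 ± 9.64 CPM in the ZBTB18 line and 25.1 ± 0.91 CPM in the empty-vector line (SD, n = 3 each), and 95.2 ± 4.3, 82.9 ± 6.49, 34.7 ± 4.23, 59.2 ± 9.96 and 29.5 ± 1.4 CPM in the receptor line with TGF-β1, the receptor line with vehicle, M11, M12 and the parental line. Tgfbr2 averaged 604 ± 17.4 CPM with TGF-β1 and 588 ± 32.7 CPM with vehicle in the receptor line, 1.74 ± 0.253 CPM in the ZBTB18 line, 26.6 ± 0.439 CPM with empty vector, 21.4 ± 1.05 CPM in M11, 19.3 ± 1.84 CPM in M12 and 13.8 ± 0.805 CPM in the parental line. The labelled cell type was only partly borne out: of 7 breast epithelial markers Krt8 was present in every group, at 154 to 342 CPM on average, while Epcam averaged at most 3.22 CPM, Krt18 at most 3.01 CPM, and Cdh1, Krt19, Cldn3 and Cldn4 were below 0.1 CPM in every group. Library totals ran from 24208569 to 90518872 counts. Parental replicate 1 held 14% of its counts on Gm42418, a gene that overlaps ribosomal RNA sequence, against at most 0.0918% in the other 20 libraries.

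Actin filaments are built from actin monomers and pulled by myosin motors. The cytoplasmic actins Actb and Actg1 are made by nearly all cells, while Acta2 and Actg2 are the smooth muscle actins, and Acta2 is the usual marker of contractile myofibroblasts. Contraction of non-muscle cells runs through RhoA, its kinases ROCK1 and ROCK2 and the myosin light chains, and monomer depletion releases cofactors that let SRF switch on actin and adhesion genes. TGF-β is known to raise many of these genes in fibroblasts and epithelial cells.

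SRF binds a DNA element called the CArG box. Promoters of 38 members, 250 bases before to 50 after the gene start, were found in the RefSeq table for build GRCm38.p6. Actg2, Actb, Tagln, Diaph1 and Rock1 had no entry there, so their promoters were not searched. A CArG box on either strand lay in 6 of them (15.8%): Actg1, Cnn2, Myl6, Myl9, Vcl and Srf itself. Every match read CC, then 6 letters that were A or T, then GG. Boxes that differ from this form may be missed, and boxes outside the window were not searched. The share over all 27025 genes of the table was 1.81%. The letters GGAATG, the core known for TEAD factors, lay in 13 members' promoters (34.2%) against 16.6% of all genes, and CAGATG, the core of the ZBTB18 site, lay in 5 (13.2%: Myl6, Myh9, Cald1, Rhob and Diaph3) against 19.2%. A gene was counted once if any of its promoters held the motif. No match of one motif overlapped a match of another. A match describes these letters only and is neither a site in use nor a cause.

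The stretches below show the CArG box in the genes for cytoplasmic actin, SRF, vinculin and a myosin light chain, and GGAATG (or its reverse complement) in those for the smooth muscle actin and the transgelin that the results turn on. Each is written 5′ to 3′ on the strand of the gene, from RefSeq, build GRCm38.p6, with the motif in capitals. They lie at chr11:120348541-120348620 (Actg1, minus strand), chr17:46556180-46556279 (Srf, minus), chr14:20929148-20929215 (Vcl, plus), chr2:156775268-156775347 (Myl9, plus), chr19:34255479-34255554 (Acta2, minus) and chr1:172500093-172500206 (Tagln2, plus).
Actg1: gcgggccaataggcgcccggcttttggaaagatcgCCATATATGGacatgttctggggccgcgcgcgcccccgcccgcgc
Srf: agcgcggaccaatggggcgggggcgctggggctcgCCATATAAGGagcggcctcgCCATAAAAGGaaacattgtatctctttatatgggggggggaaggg
Vcl: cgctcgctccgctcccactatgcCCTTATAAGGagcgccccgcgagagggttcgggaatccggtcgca
Myl9: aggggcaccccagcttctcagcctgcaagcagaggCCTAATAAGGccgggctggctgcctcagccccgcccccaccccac
Acta2: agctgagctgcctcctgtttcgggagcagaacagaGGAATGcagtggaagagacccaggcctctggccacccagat
Tagln2: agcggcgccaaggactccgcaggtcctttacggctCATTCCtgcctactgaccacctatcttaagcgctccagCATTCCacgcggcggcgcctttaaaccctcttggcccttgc

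The members covered a wide range of abundance. In TPM, which corrects for gene length and so allows genes to be compared, the highest were Actb (1404 to 3602 TPM over the 21 libraries), the filament-severing cofilin Cfl1 (1295 to 2996 TPM), Actg1 (569 to 2088 TPM), the monomer-binding profilin Pfn1 (757 to 1649 TPM) and the essential myosin light chain Myl6 (623 to 1344 TPM). The genes that define differentiated smooth muscle were at or near the floor: Tagln, the smooth muscle transgelin, ran from 0.02 to 0.92 TPM, Cnn1 from 0 to 0.14 TPM, the leiomodin Lmod1 from 0 to 0.18 TPM and the smooth muscle light chain Myl9 from 0.32 to 4.65 TPM. Of the other smooth muscle and pericyte markers, Myh11, Myocd and Rgs5 averaged below 0.11 CPM in every group, Des averaged 1.47 to 9.64 CPM and Cspg4 0.428 to 2.98 CPM, while Smtn, which many cells express, averaged 107 to 189 CPM. The non-muscle myosin heavy chain was almost all Myh9 (46.5 to 185 TPM), with Myh10 at 0.01 to 0.35 TPM.

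Levels between groups are given below in CPM. The ratio of the highest to the lowest group mean ran from 1.19 for Cfl1 to 73.4 for Actg2 over the 42 tested members. Besides Actg2, the widest ratios among members that reached 5 CPM in some group were 10.1 for the myosin light chain kinase Mylk, 5.54 for Acta2, 3.81 for the PDZ and LIM protein Pdlim5 and 3.49 for Tagln2. The narrowest after Cfl1 were 1.2 for the regulatory light chain Myl12b and 1.26 for the filamin Flnc, 2 members that passed the test in none of the 7 comparisons. The parental line had the lowest mean of the 7 groups for 20 of the 42 members, and the empty-vector line for 1. The same count is not given over all genes, so whether the members stand apart in it was not tested. Summed over the members, the share of all TPM was 1.49 ± 0.0172% in the receptor line with TGF-β1, 1.42 ± 0.053% with vehicle, 1.5 ± 0.0607% in the ZBTB18 line, 1.59 ± 0.0714% with empty vector, 1.43 ± 0.225% in M11, 1.56 ± 0.215% in M12 and 1.01 ± 0.228% in the parental line (SD, n = 3 each). Parental replicates 1, 2 and 3 had 0.788, 0.988 and 1.24%. Replicate 1 is the library with 14% of its counts on Gm42418, and the part of this in the low share was not tested. Within 3 of the 7 groups a library stood apart on the members' summed CPM: M11 replicate 3 had 21621 against 17661 and 17947 CPM, M12 replicate 2 had 16385 against 20863 and 21893 CPM, and parental replicate 3 had 15984 against 13171 and 13836 CPM.

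**Figure D1:**
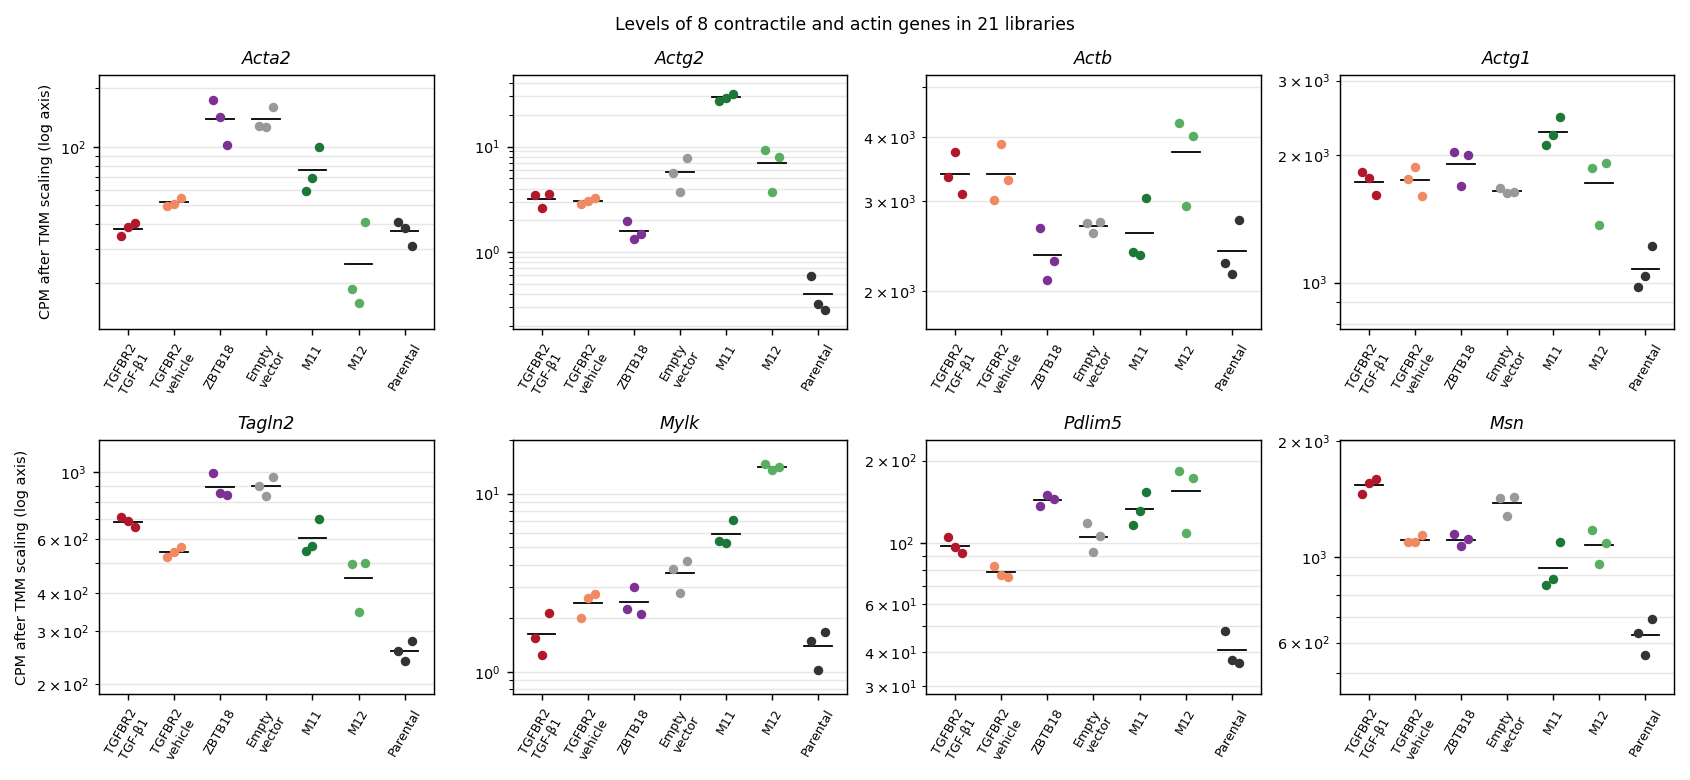
CPM after TMM scaling on a log axis (vertical) for 8 members in the 7 groups (horizontal), with a point for each library and a line at the mean of 3. Actg2 peaks in M11 at 27.1 to 31.8 CPM, Mylk in M12 at 13.6 to 14.6 CPM, and the parental libraries are the lowest for Actg2, Actg1, Tagln2, Pdlim5 and Msn.

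A set of contractile genes was modestly lower in the ZBTB18 line than with empty vector. Of the 42 tested members, 14 were lower and 2 higher at an adjusted p under 0.05 (edgeR quasi-likelihood test, Benjamini-Hochberg over all genes). Over all genes tested 14.5% were lower and 14% higher, and over genes with at least 30 CPM the shares were 14.9% and 15.1%. The members' median log2 fold change was -0.11, against 0.01 over all genes tested. The tropomyosin, caldesmon and leiomodin group held 5 of the 14 lower members among its 6.

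Among the actins, Actg2 was the member with the largest fold change. It had 1.97, 1.33 and 1.48 CPM in the ZBTB18 line, against 5.62, 3.69 and 7.77 CPM with empty vector, so that all 3 ZBTB18 libraries lay below all 3 control libraries (log2 fold change -1.84 ± 0.29 (SE), adjusted p = 7.53e-05). Acta2 had 174, 142 and 102 CPM in the ZBTB18 line and 128, 126 and 161 CPM with empty vector, and the groups overlapped (0.01 ± 0.28, adjusted p = 0.99). Neither Actb (-0.19) nor Actg1 (0.21) passed the test. In the calponin family Cnn2, which binds actin in non-muscle cells, fell by 0.27 on the log2 scale to 84.1 ± 8.48 CPM in the ZBTB18 line, against 102 ± 2.78 CPM with empty vector.

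Myosin light chains moved unevenly. Myl6 had 276, 257 and 242 CPM in the ZBTB18 line, against 406, 409.7 and 446 CPM with empty vector, with no overlap (-0.70 ± 0.10, adjusted p = 2.2e-05). Myl12a, a regulatory light chain, fell by 0.35 on the log2 scale, while its neighbour on chromosome 17, Myl12b, was at 59.2 ± 0.432 CPM in the ZBTB18 line and 58.7 ± 5.03 CPM with empty vector (0.01, adjusted p = 0.936). These close copies share reads, since 20 and 21 of the 21 libraries hold a count that is not whole for Myl12a and Myl12b, so the split between them is uncertain. Myh9 (0.14) and Mylk (-0.55, adjusted p = 0.0557) did not pass.

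The tropomyosins, which coat actin filaments and set which motors bind, were lower in 3 of 4 genes. Tpm2 had 77.5, 71.1 and 81.3 CPM in the ZBTB18 line, against 95.4, 104 and 113 CPM with empty vector, and the groups did not overlap (-0.44 ± 0.10, adjusted p = 0.00146). Tpm1 (-0.36) and Tpm4 (-0.34) fell as well, and Tpm3 was at -0.08. The tropomyosin-binding regulator Cald1 fell by 0.29 on the log2 scale. Lmod1, an actin nucleator of muscle, fell by 1.52, on levels below 0.5 CPM in every library.

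Of the crosslinking and adhesion members, 3 fell: the focal adhesion protein Zyx (-0.42), the actin-binding scaffold Lasp1 (-0.40) and Msn, which ties filaments to the membrane (-0.31). Pdlim5 rose, with 136, 149.9 and 145 CPM in the ZBTB18 line against 118, 92.5 and 106 CPM with empty vector, all 3 above the controls (0.44 ± 0.15, adjusted p = 0.0276). The filamins, the alpha-actinins, vinculin Vcl, talin Tln1 and ezrin Ezr did not pass the test, with log2 fold changes of -0.35 to 0.06. Limk1, the kinase that inactivates cofilin, was the other member that rose, with 53.8, 58.5 and 67 CPM in the ZBTB18 line against 40, 43.5 and 42.1 CPM with empty vector (0.51 ± 0.11, adjusted p = 0.000871). Its substrate Cfl1 (0.16) and Pfn1 (-0.11) did not pass.

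Among the signalling members, the short-lived GTPase Rhob had 216, 175 and 253 CPM in the ZBTB18 line, against 343, 360.4 and 504 CPM with empty vector, without overlap (-0.91 ± 0.19, adjusted p = 0.00155). Rhoa itself fell by 0.24, to 373 ± 20.4 CPM in the ZBTB18 line, against 439 ± 10.5 CPM with empty vector. The kinases Rock1 and Rock2, the formins Diaph1 and Diaph3 and Srf had log2 fold changes between -0.12 and 0.16 and did not pass. Of the 16 calls, those of Actg2, Limk1, Myl12a, Myl6, Rhob and Tpm2 held under every alternative tried. The number of lower members was 6 on log2(TPM + 1), 8 without empty-vector replicate 1 and 7 without ZBTB18 replicate 2. Shares over all genes are not given for these alternatives, so whether the members exceeded them there was not tested. The call of Pdlim5 was lost without ZBTB18 replicate 2 (0.41) or 3 (0.44) and without empty-vector replicate 2 (0.36) or 3 (0.45). The summed level of 7 fibroblast markers was 377 to 467 CPM in the ZBTB18 libraries and 293 to 342 CPM in the empty-vector libraries. Col3a1 averaged 279 CPM in the ZBTB18 line and 172 CPM with empty vector, Pdgfrb averaged 10.8 CPM in the ZBTB18 line and 40.7 CPM with empty vector, and the markers' part in these calls was not tested.

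Around the members, other genes of the pathway included larger decreases in the ZBTB18 line. Over all genes tested 14.5% were lower and 14% higher, and whether the lists of pathway genes differ from these shares was not tested. Among 32 tested actin-binding, capping and formin genes, 6 fell and 6 rose, and the severing protein Gsn was at 157 ± 19.6 CPM in the ZBTB18 line and 496 ± 15.7 CPM with empty vector (-1.66, adjusted p = 8.96e-09). Of 17 SRF cofactors and SRF or YAP linked genes, 7 fell and 1 rose, with Ccn2 (-2.63) and Amotl2 (-1.95) leading. The counts were 6 lower and 1 higher of 23 focal adhesion and LIM genes (Fhl3 -1.25), 3 and 1 of 17 Arp2/3 complex genes and their activators (Arpc4 -0.30), and 1 and 1 of 11 tested muscle isoforms.

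**Figure D2:**
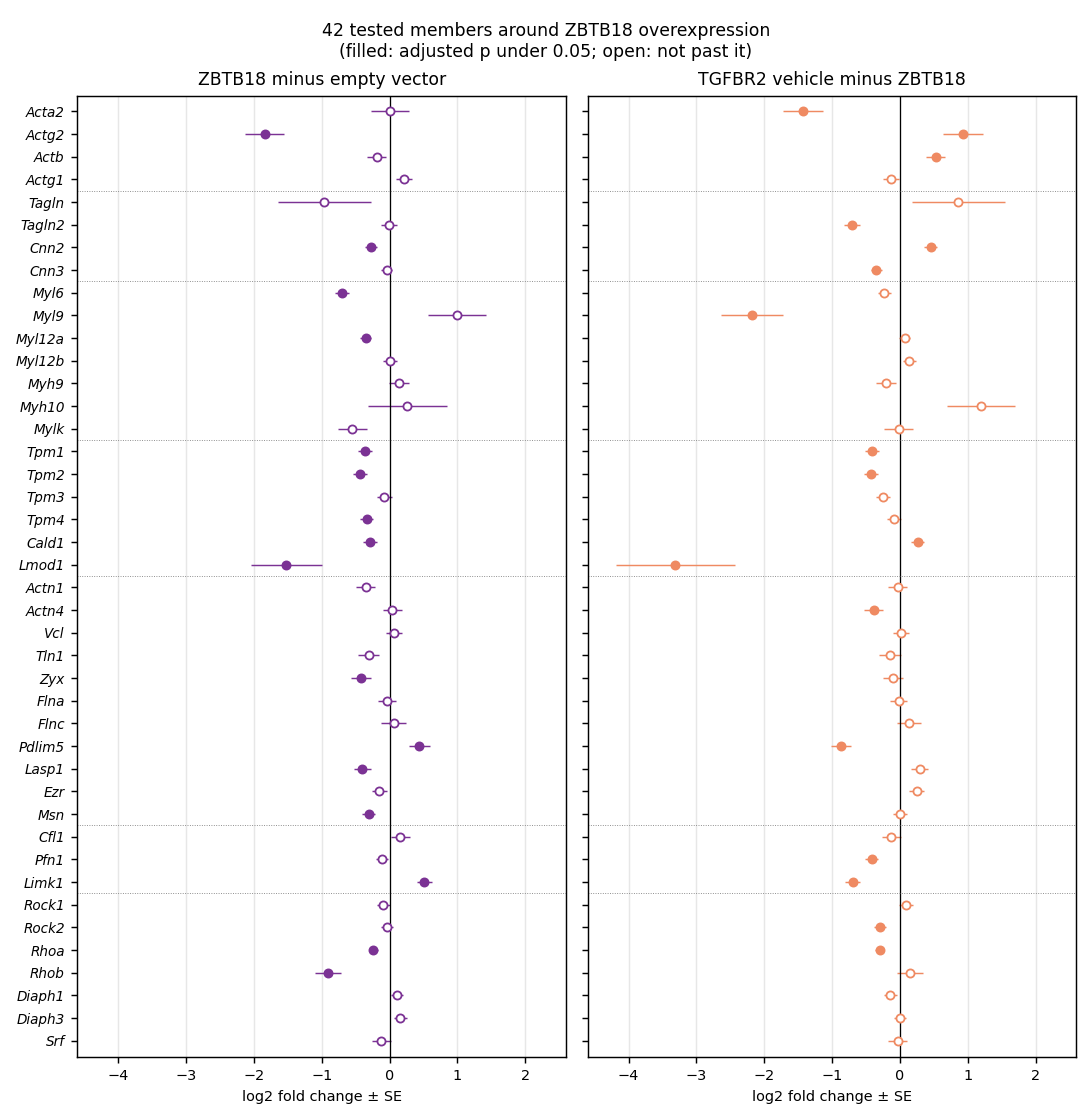
Log2 fold change with its SE (horizontal) for the 42 tested members grouped by role (vertical), in the ZBTB18 line minus empty vector (left) and in the receptor line with vehicle minus the ZBTB18 line (right). Filled points passed an adjusted p of 0.05; at left they lie mostly below 0, from -1.84 for Actg2 to 0.51 for Limk1.

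The receptor line under doxycycline and vehicle had less Acta2, Pdlim5, Tagln2 and Limk1 RNA than the ZBTB18 line, and more Actb and Cnn2 RNA. These groups differ in the receptor construct, in doxycycline and in the line, which cannot be told apart, and the ZBTB18 libraries are shared with the preceding comparison. Of the 42 members 13 were lower and 4 higher, where 19.3% of all genes tested were lower and 19.5% higher. The members' median was -0.10, against a median of 0 over all genes.

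Acta2 had 49.8, 50.9 and 54.8 CPM in the receptor line with vehicle, against 174, 142 and 102 CPM in the ZBTB18 line, and the groups did not overlap (-1.43 ± 0.29, adjusted p = 0.0009). Actg2 rose, with 2.83, 3.07 and 3.25 CPM in the receptor line against 1.97, 1.33 and 1.48 CPM in the ZBTB18 line (0.93 ± 0.29, adjusted p = 0.0163). Actb rose as well, with 3008, 3867 and 3295 CPM in the receptor line and 2661, 2098 and 2288 CPM in the ZBTB18 line (0.53 ± 0.14, adjusted p = 0.00581). The smooth muscle actins thus moved in opposite directions. The 7 fibroblast markers summed to 154 to 163 CPM in the receptor line and 377 to 467 CPM in the ZBTB18 line. Col3a1 averaged 17.6 CPM in the receptor line and 279 CPM in the ZBTB18 line, while the averages ran the other way for Col1a1 (10.0 and 0.99 CPM) and Pdgfrb (21.4 and 10.8 CPM), and the markers' part in the actin result was not tested.

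Tagln2, a transgelin of non-muscle cells, had 526, 547 and 566 CPM in the receptor line and 992, 854 and 839 CPM in the ZBTB18 line (-0.71 ± 0.12, adjusted p = 8.14e-05). Cnn2 rose, at 114, 123 and 109 CPM in the receptor line and 91.5, 74.9 and 86.1 CPM in the ZBTB18 line (0.45 ± 0.09, adjusted p = 0.000302), while Cnn3 fell by 0.35. In each of these 3 genes the groups did not overlap.

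Pdlim5 had 82.7, 76.8 and 75.2 CPM in the receptor line against 136, 149.9 and 145 CPM in the ZBTB18 line (-0.87 ± 0.15, adjusted p = 9.42e-05). Limk1 had 36.8, 35.9 and 37.7 CPM in the receptor line against 53.8, 58.5 and 67 CPM in the ZBTB18 line (-0.70 ± 0.11, adjusted p = 2.42e-05). Both were the members that were higher in the ZBTB18 line than with empty vector. Lower calls of smaller size were Tpm2 (-0.43), Pfn1 (-0.42), Tpm1 (-0.41), Actn4 (-0.39), Rock2 (-0.30) and Rhoa (-0.30), and Cald1 was higher (0.26). Of the barely detected members, Myl9 fell to 0.42 ± 0.0777 CPM in the receptor line, against 1.93 ± 0.271 CPM in the ZBTB18 line (-2.18), and Lmod1 had 2 reads in the receptor line and 20 in the ZBTB18 line, so that its scaled level was 12.1-fold lower with the receptor (2.94 to 107, exact 95% interval for counting error). Of the 17 calls 11 held under every alternative, and the number of higher members was 2 without ZBTB18 replicate 2. The call of Actg2 was lost without ZBTB18 replicate 2 (0.82) or 3 (0.88).

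Of the pathway lists, the actin-binding, capping and formin genes had 15 of 32 lower and 5 higher, with Gsn at 546 ± 91.3 CPM in the receptor line and 157 ± 19.6 CPM in the ZBTB18 line (1.80) and the monomer-sequestering Tmsb4x at 1.6 ± 0.337 CPM and 14.5 ± 1.16 CPM (-3.21). The SRF and YAP linked genes had 6 of 17 higher and 2 lower (Egr1 2.85, Amotl2 2.52). The focal adhesion list had 5 higher and 5 lower of 23 (Tns1 1.08) and the muscle isoforms 4 and 3 of 11 (Des 2.03). The Arp2/3 list had 1 and 2 of 17 (Wasf1 -1.13). Over all genes tested 19.5% were higher and 19.3% lower, and whether the lists differ from these shares was not tested.

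TGF-β1 moved the members little in the receptor line. Only Msn rose and only Cnn2 fell among the 42 in the fit over all libraries, where 1.26% of all genes were higher and 0.654% lower. Msn had 1462, 1556 and 1594 CPM with TGF-β1, against 1092, 1094 and 1141 CPM with vehicle (0.47 ± 0.10, adjusted p = 0.0183). Cnn2 had 90.6, 92.4 and 87.1 CPM with TGF-β1, against 114, 123 and 109 CPM with vehicle (-0.36 ± 0.09, adjusted p = 0.0362). Neither gene's groups overlapped. The call of Msn was lost without TGF-β1 replicate 2 (0.46) or 3 (0.45) and without vehicle replicate 1 (0.46) or 2 (0.46), and that of Cnn2 without any 1 of the TGF-β1 libraries (-0.36, -0.37 and -0.33) and without vehicle replicate 1 (-0.36) or 2 (-0.31). Acta2, the standard TGF-β1 readout in myofibroblasts, had 34.9, 38.7 and 40.5 CPM with TGF-β1 and 49.8, 50.9 and 54.8 CPM with vehicle, all 3 treated libraries below all 3 vehicle libraries (-0.45 ± 0.28, adjusted p = 0.592).

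Same-numbered libraries of these 2 groups deviated together, so the pairs were also compared with the replicate number as a block in the 6 libraries alone, a fit chosen after the data were seen. There 16 of 41 tested members were higher and 5 lower, where 13.4% of all genes were higher and 12.2% lower. All of these changes were small, from -0.56 to 0.47 on the log2 scale. Every one of the 21 members had the same sign in all 3 pairs. They were selected by the fit to those same pairs, so the shared sign is not separate evidence. With the block Acta2 fell by 0.45 (SE 0.05, adjusted p = 9.7e-07), with per-pair log2 ratios of -0.51, -0.39 and -0.44. Without the block, the 6 libraries alone also gave more member calls than the fit over all libraries. The fits to 6 libraries also differ in the filter and in the spread estimate, and what gave the added calls was not tested.

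By role, the members that rose in the paired fit were mostly crosslinkers and filament-side proteins. Of 11 crosslinking and adhesion members, 7 rose: Msn (0.47), the alpha-actinins Actn1 (0.35) and Actn4 (0.16), Pdlim5 (0.32), Zyx (0.27), Tln1 (0.20) and the filamin Flna (0.17). Vcl, which links talin to actin, fell by 0.12. Tpm1 (0.23), Tpm3 (0.24), Tpm4 (0.12) and Cald1 (0.29) rose and Tpm2 fell by 0.22. Myh9 (0.24), Myl12a (0.14), Tagln2 (0.33), Cnn3 (0.17) and Rhoa (0.19) rose, and Mylk fell by 0.56. The cytoplasmic actins Actb (0.01, adjusted p = 0.944) and Actg1 (-0.01, adjusted p = 0.908), Srf, Cfl1, Pfn1, Limk1, Ezr and both formins did not pass in the paired fit. Rhob was higher in all 3 pairs, by 0.91, 0.47 and 0.14, and did not pass (adjusted p = 0.268).

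**Figure D3:**
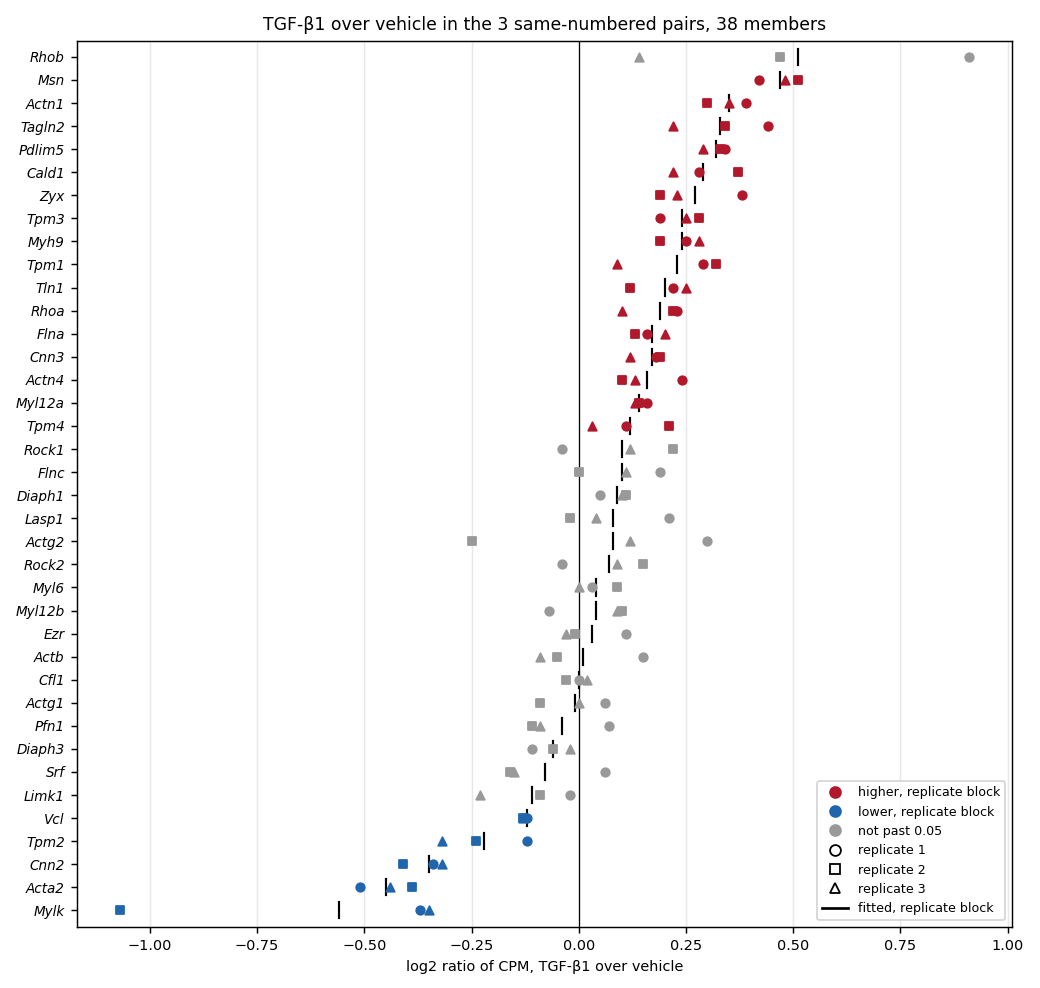
Log2 ratio of CPM, TGF-β1 over vehicle (horizontal), in the 3 same-numbered pairs of the receptor line for 38 members (vertical), with the fitted value of the paired model as a line; 4 tested members under 1 CPM on average in these groups are not drawn. Red and blue members passed an adjusted p of 0.05 in that model, and their 3 points lie on the same side of 0, from -1.07 for a Mylk pair to 0.51 for a Msn pair. The model was fitted to these same pairs, which favours a shared side.

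Outside the members, the fit over all libraries called few pathway genes. The cardiac troponin Tnnt2 was at 15.9 ± 1.81 CPM with TGF-β1 and 0.406 ± 0.173 CPM with vehicle (5.20, adjusted p = 4.34e-09), 1 of 2 higher among 11 muscle isoforms. Of 23 focal adhesion and LIM genes 3 rose, Tns3 (0.83), Pdlim7 (0.74) and Csrp1 (0.71), and of 17 SRF or YAP linked genes Ccn2 rose (1.96, adjusted p = 0.01). In edgeR's test 0 of the 17 Arp2/3 genes and 0 of the 32 other actin-binding genes passed, and 0 and 7 of them had an unadjusted p under 0.05. With the replicate block in the 6 libraries the counts were larger. Over all genes 13.4% were higher and 12.2% lower there, against 1.26% and 0.654% in the fit over all libraries. With the block 2 of 17 Arp2/3 genes were higher and 0 lower, and 9 and 5 of 31 other actin-binding genes. The focal adhesion and LIM list had 8 and 1 of 23, the muscle isoforms 3 and 2 of 11. The SRF or YAP linked genes had 8 and 2 of 17. Whether the lists differ from these shares was not tested.

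The empty-vector line had more RNA of most of these genes than the parental line, and in edgeR's test none was called lower. Of the 42 members, 27 were higher and 0 lower, where 28.9% of all genes were higher and 29.0% lower. Abundant genes leaned upward in this comparison: over genes with at least 30 CPM, 42.8% were higher and 22.5% lower with a median log2 fold change of 0.15, beside 24 higher and 0 lower of 36 members with a median of 0.46. At an unadjusted p under 0.05 in edgeR 28 members were higher and 0 lower, and DESeq2 also called 0 members lower. The empty-vector libraries had 0.8613 to 1.07% of counts on mitochondrial genes and the parental libraries 2.414 to 2.563%, and the part of this in the result was not tested. Without parental replicate 1, the library rich in Gm42418, 26 members were higher and 0 lower.

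Each smooth muscle actin was higher. Actg2 had 5.62, 3.69 and 7.77 CPM with empty vector, against 0.595, 0.319 and 0.284 CPM in the parental line (3.84 ± 0.36, adjusted p = 8.65e-08). Acta2 had 128, 126 and 161 CPM with empty vector, against 41.1, 38.3 and 31.1 CPM in the parental line (1.91 ± 0.29, adjusted p = 4.99e-05). Both separated the groups completely. Actg1 rose by 0.61, and Actb was at 2679 ± 73.9 CPM with empty vector and 2392 ± 313 CPM in the parental line (0.16, adjusted p = 0.336).

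Tagln2 had 902, 836 and 963 CPM with empty vector, against 257, 239 and 278 CPM in the parental line (1.80 ± 0.12, adjusted p = 7.34e-10). Pdlim5 had 118, 92.5 and 106 CPM with empty vector, against 47.7, 37.6 and 36.6 CPM in the parental line (1.38 ± 0.15, adjusted p = 4.72e-07). Neither gene's groups overlapped. Msn had 1427, 1276 and 1431 CPM with empty vector, against 637, 558 and 693 CPM in the parental line (1.13 ± 0.10, adjusted p = 4.24e-08). Actn4 had 727, 630.4 and 767 CPM with empty vector, against 307, 308 and 407 CPM in the parental line (1.06 ± 0.14, adjusted p = 2.59e-06). These groups too were apart in every library.

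By role, all 6 of the tropomyosin, caldesmon and leiomodin members were higher, from 0.24 for Tpm2 to 2.22 for the barely detected Lmod1. Of 11 crosslinking and adhesion members 8 were higher, which besides those above were Flna (0.94), Tln1 (0.87), Zyx (0.71), Vcl (0.63) and Actn1 (0.44). Rock1 (0.77), Diaph1 (0.57), Srf (0.53), Diaph3 (0.49) and Rock2 (0.34) were higher too. The myosin group had 2 of 7, Mylk (1.37) and Myh9 (1.00), while Myl6, Myl12a and Myl12b lay between -0.11 and -0.01 and did not pass. Cnn3 (0.25) and Limk1 (0.35) were the remaining calls. The 7 fibroblast markers summed to 293 to 342 CPM with empty vector and 142 to 152 CPM in the parental line. Col3a1 averaged 172 CPM with empty vector and 37.2 CPM in the parental line, while the averages ran the other way for Col1a1 (1.51 and 4.7 CPM), and the markers' part in these calls was not tested.

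M11, a line from a lung metastasis, had more smooth muscle actin RNA than the parental line. Of the 42 members 22 were higher and 3 lower, where 20.8% of all genes were higher and 20.0% lower, and 24.0% and 22.5% of genes with at least 30 CPM. The members' median was 0.39, against a median of 0 over all genes. The parental libraries are shared with the comparisons of the empty-vector line and of M12, so the 3 sets of values are not independent. Without parental replicate 1 the counts were 18 higher and 2 lower.

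Actg2 had 27.1, 28.9 and 31.8 CPM in M11, the highest of the 7 groups, against 0.595, 0.319 and 0.284 CPM in the parental line (6.20 ± 0.36, adjusted p = 6.14e-11), a fold of 73.5. Acta2 had 59.4, 69.5 and 99.6 CPM in M11, against 41.1, 38.3 and 31.1 CPM in the parental line (1.05 ± 0.29, adjusted p = 0.00839). Actg1 had 2117, 2233 and 2468 CPM in M11, against 977, 1035 and 1219.8 CPM in the parental line (1.08 ± 0.12, adjusted p = 3.52e-07). The groups did not overlap for these 3 actins, although the call of Acta2 was lost without M11 replicate 3 (0.81). They did for Actb, with 2591 ± 385 CPM in M11 and 2392 ± 313 CPM in the parental line (0.11, adjusted p = 0.552). Actg1 held counts that were not whole in 6 libraries, so some of its reads were shared with other genes.

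Mylk, which phosphorylates the regulatory light chains, had 5.39, 5.26 and 7.08 CPM in M11, against 1.5, 1.03 and 1.68 CPM in the parental line (2.08 ± 0.23, adjusted p = 2.69e-07). Pdlim5 had 116, 131 and 153 CPM in M11, against 47.7, 37.6 and 36.6 CPM in the parental line (1.71 ± 0.15, adjusted p = 2.24e-08). Tagln2 had 549.9, 569 and 703 CPM in M11, against 257, 239 and 278 CPM in the parental line (1.24 ± 0.12, adjusted p = 6.26e-08). Every M11 library was above every parental library for these 3 genes.

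Among the other calls, Actn4 (1.00), Flna (0.84), Tln1 (0.62), Msn (0.58) and Zyx (0.52) were the crosslinking and adhesion members that rose, and Tpm4 (0.86), Tpm1 (0.49) and Cald1 (0.37) rose in the tropomyosin group together with Lmod1 (1.94). Cnn2 (0.65), Myh9 (0.74) and the barely detected Myl9 (1.39) rose too. Of the signalling members Srf (0.74), Rock1 (0.49), Rock2 (0.42) and Diaph1 (0.29) rose, while Rhob (-0.54) and Rhoa (-0.20) fell. Ezr, the third lower member, was at 212 ± 37.7 CPM in M11 and 290.5 ± 20 CPM in the parental line (-0.45). The fibroblast markers were mixed: the summed level of 7 markers was 711 to 965 CPM in M11 and 142 to 152 CPM in the parental line, 721 CPM of the M11 level being Col3a1, while Col1a1 averaged 0.992 CPM in M11 and 4.7 CPM in the parental line, and Dcn, Lum and Col1a2 averaged below 0.05 CPM in both groups. The 4 endothelial markers summed to 3.54 to 3.99 CPM in M11 and 0.114 to 0.341 CPM in the parental line. Pecam1 averaged 3.14 CPM in M11, and Tek ran the other way (0 CPM in M11 and 0.0189 CPM in the parental line). The part of these markers in the actin result was not tested.

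M12, the other metastasis-derived line, also had more Actg2 RNA than the parental line, and its next largest difference was in Mylk. Of the 42 members 23 were higher and 1 lower, where 24.9% of all genes were higher and 25.2% lower, and 27.8% and 27.6% of genes with at least 30 CPM. The members' median was 0.40, against -0.01 over all genes. Without parental replicate 1 the counts were 22 higher and 2 lower.

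Actg2 had 9.36, 3.74 and 7.99 CPM in M12, against 0.595, 0.319 and 0.284 CPM in the parental line (4.14 ± 0.36, adjusted p = 1.21e-08). Acta2 had 18.5, 15.7 and 41 CPM in M12 and 41.1, 38.3 and 31.1 CPM in the parental line, and these groups overlapped (-0.55 ± 0.29, adjusted p = 0.128). Mylk had 14.6, 13.6 and 14.1 CPM in M12, the highest of the 7 groups, against 1.5, 1.03 and 1.68 CPM in the parental line (3.34 ± 0.23, adjusted p = 1.65e-10). The Actg2 and Mylk levels of every M12 library exceeded every parental library.

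Pdlim5 had 183, 109 and 173 CPM in M12, against 47.7, 37.6 and 36.6 CPM in the parental line (1.93 ± 0.15, adjusted p = 2.52e-09). Actn4 had 789, 549 and 717 CPM in M12, against 307, 308 and 407 CPM in the parental line (1.01 ± 0.14, adjusted p = 3.29e-06). Limk1 had 60.1, 51.8 and 61.2 CPM in M12, against 31.8, 30.7 and 36.3 CPM in the parental line (0.81 ± 0.11, adjusted p = 2.38e-06). Replicate 2 was the lowest M12 library for each of these genes and still lay above the parental libraries. Tagln2 had 497, 347 and 503 CPM in M12, against 257, 239 and 278 CPM in the parental line (0.80 ± 0.12, adjusted p = 1.18e-05).

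The remaining higher members of M12 were Msn (0.77), Diaph1 (0.77), Actg1 (0.67), Tpm1 (0.66), Actb (0.64), Flna (0.62), Rock2 (0.58), Tln1 (0.55), Srf (0.54), Myh9 (0.52), Tpm4 (0.52), Tpm3 (0.48), Diaph3 (0.45), Myl12a (0.42), Cnn3 (0.39), Pfn1 (0.39) and Cnn2 (0.34). Rhob fell, to 215 ± 23.6 CPM in M12, against 320.4 ± 35.9 CPM in the parental line (-0.58, adjusted p = 0.0188), a call lost without M12 replicate 2 (-0.51) and without parental replicate 2 (-0.54) or 3 (-0.54). The 7 fibroblast markers summed to 213 to 359 CPM in M12 and 142 to 152 CPM in the parental line. Col3a1 averaged 183 CPM in M12 and 37.2 CPM in the parental line, while the averages ran the other way for Pdgfrb (18.4 and 33.5 CPM) and Col1a1 (0.593 and 4.7 CPM), and the markers' part was not tested. Of the 24 calls in M12, 20 held under every alternative, as did 16 of the 25 in M11 and 23 of the 27 with empty vector. Those 23 include Lmod1, which was below 1 CPM in every library and so was not tested under the filter of 1 CPM in 3 libraries.

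**Figure D4:**
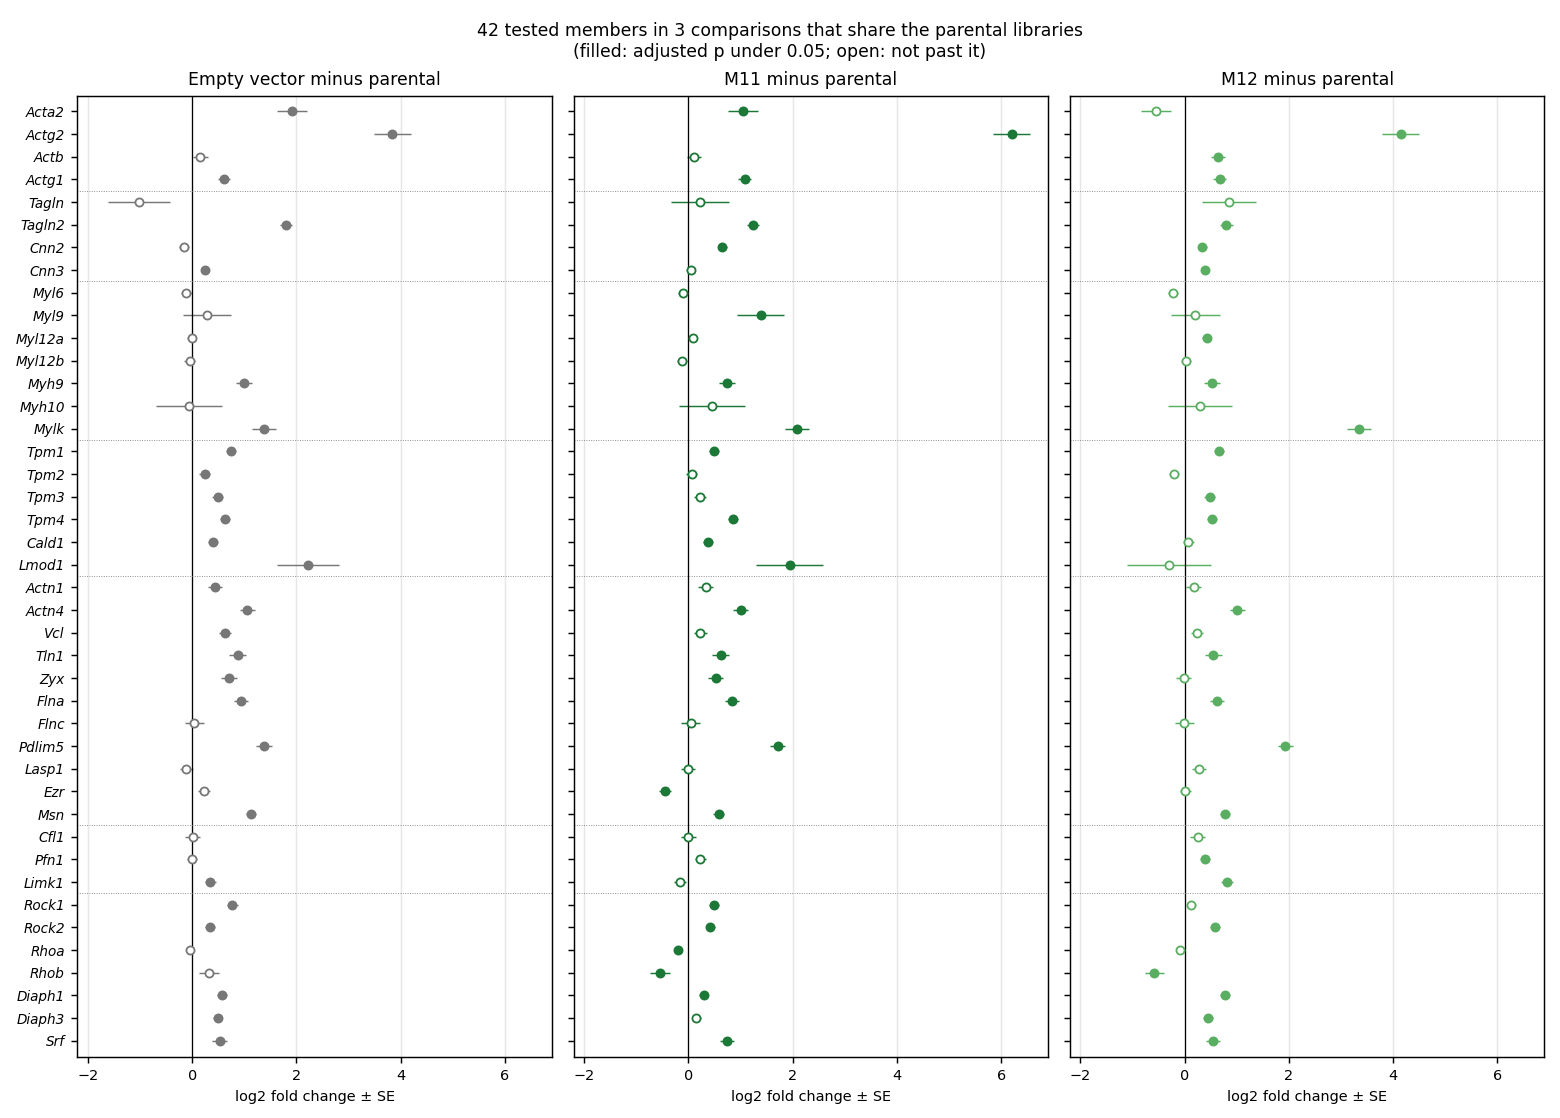
Log2 fold change with its SE (horizontal) for the 42 tested members grouped by role (vertical), in the empty-vector line, M11 and M12, each minus the parental line, whose libraries the 3 panels share. Filled points passed an adjusted p of 0.05 and lie mostly above 0, with Actg2 at 3.84, 6.20 and 4.14.

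The pathway lists given here had more higher than lower calls in the same comparisons, although M12 had 7 and 6 for focal adhesion and LIM genes. Over all genes 28.9% were higher and 29.0% lower with empty vector, 20.8% and 20.0% in M11, and 24.9% and 25.2% in M12. Over genes with at least 30 CPM, the empty-vector shares were 42.8% and 22.5%. Whether the lists differ from these shares was not tested. Of 32 other actin-binding, capping and formin genes, 17 were higher and 5 lower with empty vector, 14 and 2 in M11, and 22 and 2 in M12, with the filopodial motor Myo10 at 1.59, 0.76 and 1.56 on the log2 scale. Of 23 focal adhesion and LIM genes, 14 were higher and 4 lower with empty vector, 12 and 2 in M11, and 7 and 6 in M12. There the focal adhesion protein Tns1 was at 85.5 ± 10.1 CPM with empty vector (1.33), 117 ± 21.3 CPM in M11 (1.78) and 2.84 ± 0.292 CPM in M12 (-3.58), against 34.1 ± 4.71 CPM in the parental line. The SRF or YAP linked genes had 7 higher and 1 lower of 17 with empty vector, 9 and 2 in M11, and 10 and 1 in M12 (Filip1l 0.98, 1.38 and 1.82), and Ccn2 fell in M11 (-1.70) and M12 (-2.19). The Arp2/3 list had 8 higher and 3 lower of 17 with empty vector, 6 and 4 in M11, and 7 and 4 in M12 (Actr2 0.73, 0.55 and 0.82), and the muscle isoforms 3 and 2 of 11, 4 and 0, and 5 and 1 (Smtn 0.42, 0.43 and 0.40).

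M11 had more smooth muscle actin RNA than M12 and less Mylk and Limk1 RNA. Of the 42 members 12 were higher in M11 and 8 lower, where 17.7% of all genes were higher and 17.8% lower, and the median was 0.02 for the members and 0 for all genes. The difference between the effects of M11 and M12 against the parental line is this same contrast.

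Actg2 had 27.1, 28.9 and 31.8 CPM in M11, against 9.36, 3.74 and 7.99 CPM in M12 (2.06 ± 0.27, adjusted p = 7.04e-06), and Acta2 had 59.4, 69.5 and 99.6 CPM in M11, against 18.5, 15.7 and 41 CPM in M12 (1.60 ± 0.29, adjusted p = 0.000471). Mylk had 5.39, 5.26 and 7.08 CPM in M11, against 14.6, 13.6 and 14.1 CPM in M12 (-1.26 ± 0.20, adjusted p = 5.68e-05). Limk1 had 29.1, 24.7 and 35 CPM in M11, against 60.1, 51.8 and 61.2 CPM in M12 (-0.97 ± 0.11, adjusted p = 6.73e-07). The groups did not overlap for any of the 4.

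Actb had 2387, 2351 and 3035 CPM in M11, against 4259.9, 2937 and 4019.5 CPM in M12 (-0.53 ± 0.14, adjusted p = 0.00604), and here M11 replicate 3 lay above M12 replicate 2. Zyx had 182, 166 and 233 CPM in M11, against 157, 102 and 143 CPM in M12, without overlap (0.53 ± 0.15, adjusted p = 0.00964), a call lost without M11 replicate 3 (0.39) or M12 replicate 2 (0.37). Higher in M11 as well were Lmod1 (2.23), Myl9 (1.19), Tagln2 (0.43), Actg1 (0.41), Rock1 (0.37), Tpm4 (0.34), Cald1 (0.30), Cnn2 (0.30) and Tpm2 (0.27), and lower were Ezr (-0.47), Diaph1 (-0.47), Cnn3 (-0.34), Myl12a (-0.34) and Diaph3 (-0.30). The libraries that stood apart weighed on these counts: without M12 replicate 2, 4 members were higher and 12 lower, and without M11 replicate 3, 8 were higher and 11 lower. Acta2, Actg2, Cnn3, Diaph1, Ezr, Limk1, Myl12a and Mylk kept their calls under every alternative. With the replicate number as a block in these 6 libraries, all 19 of the called members that could be tested kept their calls; Lmod1 did not pass the filter on low counts there.

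Of the lists, focal adhesion and LIM genes had 8 higher and 1 lower of 23 in M11 relative to M12, with Tns1 at 117 ± 21.3 CPM in M11 and 2.84 ± 0.292 CPM in M12 (5.36, adjusted p = 5.8e-16), while the other actin-binding genes had 4 higher and 15 lower of 32 (Tmsb4x -1.02). The Arp2/3 list had 4 and 7 of 17 (Arpc3 -0.85) and the SRF or YAP linked genes 2 and 3 of 17 (Ccn1 -1.01). The muscle isoforms had 3 and 1 of 11. Over all genes tested 17.7% were higher and 17.8% lower, and whether the lists differ from these shares was not tested. With the replicate block in the 6 libraries the Arp2/3 list had 4 and 4 of 17, the other actin-binding genes 2 and 14 of 31 and the SRF or YAP linked genes 2 and 5 of 17. Shares over all genes are not given for this fit, so these block counts have no reference. The fibroblast markers summed to 711 to 965 CPM in M11 and 213 to 359 CPM in M12. The endothelial marker list summed to 3.54 to 3.99 CPM in M11 and 1.15 to 1.93 CPM in M12. Within it Pecam1 averaged 3.14 CPM in M11 and 0.348 CPM in M12, and Cdh5 0.524 and 0.448 CPM. The averages ran the other way for Kdr (0.117 and 0.807 CPM) and Tek (0 and 0.0391 CPM). The markers' part in the differences was not tested.

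The makeup of the actin RNA pool is given as shares of the 4 actin genes' summed TPM. Actb made up 67.9 ± 1.74% in the receptor line with TGF-β1, 67.2 ± 2.53% with vehicle, 55.1 ± 1.06% in the ZBTB18 line, 61.4 ± 0.555% with empty vector, 53.1 ± 1.93% in M11, 69.1 ± 0.974% in M12 and 69.5 ± 1.18% in the parental line (SD, n = 3 each). Actg1 held nearly all of the rest, from 29.5 ± 1.15% in the parental line to 44.6 ± 2.02% in M11. Acta2 reached 3.14 ± 0.745% in the ZBTB18 line and 3.01 ± 0.426% with empty vector and was lowest in M12, at 0.414 ± 0.184%. Actg2 stayed below 1% everywhere, with 0.884 ± 0.039% in M11 and 0.0186 ± 0.00976% in the parental line.

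**Figure D5:**
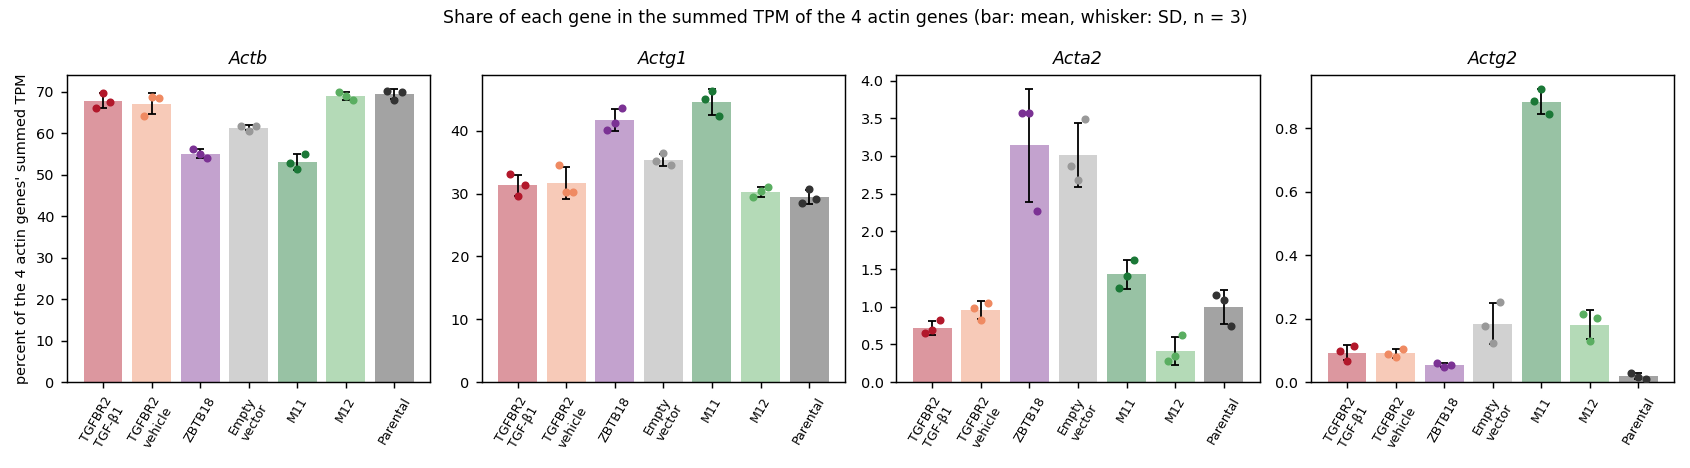
Percent of the 4 actin genes' summed TPM (vertical, a separate scale in each panel, all starting at 0) in the 7 groups (horizontal), with bars at the mean, whiskers at the SD and a point for each of 3 libraries. Actb and Actg1 hold almost all of the pool, and Acta2 peaks in the ZBTB18 and empty-vector lines at 3.14% and 3.01%, Actg2 in M11 at 0.884%.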

How the data were processed

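RNA-seq of 21 libraries was analysed, 3 in each of 7 groups read from the sample titles, with 0 columns left unmapped. The authors deposited expected counts per gene, estimated by RSEM and not normalised, and TPM per gene, scaled by RSEM for gene length and library. RSEM, STAR 2.7.1a, Trim Galore and GATK 4.1.2.0 are named in the submitters' processing notes, as is build mm10; the annotation release and the strand setting of the counting are not given in the sources used here. Of the deposited count values 1.28% were not whole, and all were rounded; 92 spike-in entries with 0 reads were left out.

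In R 4.3.3 with edgeR 4.0.16, counts were TMM-scaled and filtered on low counts by group, and tested with a quasi-likelihood F-test fitting the 7 group means jointly to the 21 libraries, which left 14 residual degrees of freedom, two-sided, with Benjamini-Hochberg adjustment over 15432 genes and a threshold of 0.05. Levels are TMM-scaled CPM with the SD between 3 libraries. The SE is the absolute log2 fold change over the square root of F. Ratios on few reads carry an exact interval for counting error only. Gene positions came from GENCODE vM21, where 67.9% of the exon bases of Tagln overlap a gene on the opposite strand, so its reads are uncertain.

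Alternatives were DESeq2 1.42.0 as size factors or as test, no filter, 1 CPM in 3 libraries, the replicate number as a block, limma 3.58.1 on TPM as log2(TPM + 1) or log2(TPM + 0.1), each library left out, and the 6 libraries of a comparison alone; the block within those 6 libraries was added after seeing the data. The deviations of same-numbered libraries from their group means correlated above 0.1 in every pair for TGF-β1 against vehicle (0.259, 0.131 and 0.311) and M11 against M12 (0.149, 0.261 and 0.142), and there the numbers were taken to pair the samples, a pairing from the data and not from the labels.

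The 43 members and the pathway and marker lists were chosen with earlier results of these data known. Values in every library are given for up to 6 members a comparison. These passed the threshold with at least 5 CPM in the higher group and the largest fold changes. Library values are also given for Acta2 where it did not pass, and for Actg2 in the receptor line with vehicle against the ZBTB18 line. Both were chosen after their values were seen, and Actg2 was below 5 CPM in each group there. List genes are up to 3 a list by the same rule, not all of which are named. 1 of the pathway lists is not reported here. Scripts were tested on simulated data.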

Additional observations from a re-analysis of the deposited data

Results flagged for a closer look

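The effect of a metastasis-derived line against the parental line differed between M11 and M12 for 20 members, by the test of M11 against M12 in the edgeR model with Benjamini-Hochberg adjustment. The differences, M11 effect minus M12 effect on the log2 scale, were positive for Lmod1 (2.23), Actg2 (2.06), Acta2 (1.60), Myl9 (1.19), Zyx (0.53), Tagln2 (0.43), Actg1 (0.41), Rock1 (0.37), Tpm4 (0.34), Cnn2 (0.30), Cald1 (0.30) and Tpm2 (0.27). They were negative for Mylk (-1.26), Limk1 (-0.97), Actb (-0.53), Ezr (-0.47), Diaph1 (-0.47), Cnn3 (-0.34), Myl12a (-0.34) and Diaph3 (-0.30).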

How the results depend on the processing

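Scaling with DESeq2 size factors moved no count of called members. For the alternatives below, shares over all genes are given only for the replicate block of TGF-β1, so the other counts have no reference. On log2(TPM + 1) and log2(TPM + 0.1), ZBTB18 over empty vector had 6 and 7 lower members (14 in the main test), M11 over M12 had 5 and 5 higher (12), M11 and M12 over parental had 0 lower on both scales (3 and 1), TGF-β1 over vehicle had 0 higher and 0 lower on both (1 and 1), and Rhoa in M11 over parental reversed to 0.01 and 0.01 (-0.20); the cause was not tested. With no filter TGF-β1 had 3 higher and 2 lower, M12 over parental 3 lower and vehicle over ZBTB18 7 higher (4). DESeq2 as the test gave 2 higher with TGF-β1, and a filter of 1 CPM gave 1 lower with empty vector over parental (0). In the 6 libraries of a comparison alone, counts were 5 higher for ZBTB18 (2), 11 higher and 3 lower for TGF-β1, 4 higher for M11 over M12 and 7 higher for vehicle. Adding the replicate block there gave 4 higher for ZBTB18, 16 higher and 5 lower for TGF-β1 and 7 higher for vehicle. Outside TGF-β1 against vehicle and M11 against M12, at least 1 same-numbered pair correlated below 0.1. The samples there were not taken as pairs, and neither the labels nor these correlations settle whether they are. The block over all 21 libraries moved no count of calls past 1.5 times. Leaving out each library in turn gave 25 to 27 higher and 0 lower with empty vector over parental, 17 to 25 and 1 to 4 for M11, 22 to 26 and 0 to 3 for M12, 4 to 12 and 7 to 12 for M11 over M12, 1 to 2 and 7 to 11 for ZBTB18, 2 to 5 and 11 to 12 for vehicle, and 0 to 1 and 0 to 1 for TGF-β1. Members under 1 CPM (Tagln, Cnn1, Lmod1, Myh10) rest on few reads, and depth limits what can be seen in them.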
